A study of Mus musculus with 8 samples.

Results

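The cathepsins are the proteases of the lysosome, and their expression was followed in mouse hearts with and without myocardial infarction (MI). The genes were chosen by symbol: 9 cathepsins (Ctsa, Ctsb, Ctsc, Ctsd, Ctsh, Ctsk, Ctsl, Ctss and Ctsz) and Cst3, which encodes cystatin C, the secreted inhibitor of cysteine cathepsins. They make up 10 of the 33249 genes in the deposited gene table, and all 10 were among the 14028 genes tested. Poly(A) RNA of myocardium was sequenced in 8 libraries, 2 for each combination of genotype (fl/fl or CKO) and surgery (Sham or MI). All 4 groups carry loxP-flanked alleles of Piezo1, which encodes a mechanically gated cation channel. CKO mice also carry a Myh6 promoter transgene for a tamoxifen-inducible Cre fused to part of the estrogen receptor, which restricts deletion to cardiomyocytes, and fl/fl mice are littermates without it. The methods place tamoxifen at 4 weeks of age and surgery, tying off the left anterior descending artery or a sham operation, at 8 weeks, and MI hearts were collected at day 42. Whether fl/fl mice received tamoxifen, whether animals were pooled and when sham hearts were collected are not given in the sources used here. The labels do not say that the 2 libraries of a group came from separate animals, so p-values measure only the spread between these libraries.

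Most cathepsins are made as inactive proenzymes, reach the lysosome by the mannose 6-phosphate route, and are activated there at acid pH. Ctsb, Ctsc, Ctsh, Ctsk, Ctsl, Ctss and Ctsz use a catalytic cysteine, Ctsd is an aspartic protease, and Ctsa is a serine carboxypeptidase that also protects other lysosomal enzymes. In the heart they clear proteins delivered by autophagy in cardiomyocytes, while macrophages and fibroblasts release several of them, among them the elastin- and collagen-cutting Ctsk and Ctss, into the matrix.

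The 7 cysteine cathepsins share the site that cuts the substrate. The stretches shown are 30 coding bases around the codon of the catalytic cysteine, given because all 7 genes have this site. They were read 5′ to 3′ on the coding strand from GENCODE M21 transcripts on GRCm38, and capitals mark the cysteine codon.
Ctsb (chr14:63135705-63136418, plus strand, across an intron): tcctgcggctctTGTtgggcatttggggca
Ctsc (chr7:88308015-88308044, plus strand): tcttgtggaagcTGCtactcatttgcctct
Ctsh (chr9:90064510-90064539, plus strand): gcctgtggcagcTGCtggactttctctacc
Ctsk (chr3:95502585-95502614, plus strand): cagtgtggttccTGTtgggctttcagctct
Ctsl (chr13:64367060-64367089, minus strand): cagtgcgggtctTGTtgggcgtttagcgca
Ctss (chr3:95545336-95545365, plus strand): tcttgtggtgccTGCtgggctttcagtgct
Ctsz (chr2:174438181-174438210, minus strand): tactgtggttccTGCtgggcccacggcagc
Between 13 and 23 of the 30 bases were identical in a pair of genes. The stretches were placed by the protein motif around this cysteine, so part of the identity follows from that choice. The most alike pairs were Ctsk with Ctss, Ctsk with Ctsl, and Ctsb with Ctsl, at 23 bases each. The matching stretch of Cst3 encodes the first hairpin loop with which cystatin C enters the active site. Its capitals mark the codons of that conserved loop.
Cst3 (chr2:148872916-148875167, minus strand, across an intron): agagctcgtaagCAGCTCGTGGCTGGAgtg

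The labels were checked before any comparison. The Cre of the transgene carries a piece of the estrogen receptor gene Esr1. Esr1 reached 707 and 402 CPM, counts scaled to the normalized library size, in CKO-MI 1 and 2, and 331 CPM in fl/fl-MI 2. The other 5 libraries, among them both CKO-Sham libraries, had 5.52 to 8.36 CPM. For 3 libraries, CKO-Sham 1, CKO-Sham 2 and fl/fl-MI 2, the Esr1 level thus went against the label. Piezo1 itself was not lower in the libraries labelled CKO, with a log2 fold change of 0.03 ± 0.16 (SE) after MI and 0.10 ± 0.16 in sham hearts. These are gene counts of whole myocardium with all its cell types, so they do not measure deletion in cardiomyocytes. The paper states that it checked deletion in isolated adult cardiomyocytes, by Western blotting. Library fl/fl-MI 2 also stood apart by genes of the atrium, with Bmp10 at 3834 CPM against 10.3 to 18.8 in the other 7. Group names are those of the labels throughout, and a direction between genotypes means one between libraries labelled so. The deposited counts summed to between 73821747 and 88117573 per library. Mitochondrially encoded genes took 43.1% to 46.4% of them in sham libraries and 19.9% to 24.2% in MI libraries.

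Levels were compared between genes in FPKM, which is scaled to transcript length. In sham hearts Ctsd and Cst3 were the most abundant of the 10 genes, with means of 187 and 177 FPKM over 4 libraries. Their ranges, 162 to 211 and 134 to 216 FPKM, overlapped. Ctsb came next at 48.8 FPKM and overlapped neither neighbour. Ctsz, Ctsa, Ctss and Ctsl followed with means of 20.8, 19.7, 19.2 and 19.1 FPKM, and each overlapped the next in the order. Ctsh, Ctsc and Ctsk were the lowest at 6.43, 5.29 and 2.98 FPKM. In MI hearts the first 3 places were the same, with mean levels of 406, 361 and 101 FPKM. Ctss held the fourth place at 59.3 FPKM, with a range of 33.3 to 104 FPKM that overlapped Ctsb above it and Ctsz below it. FPKM values of sham and MI hearts are on different footings, since the median gene was itself 0.41 higher with MI on the log2(FPKM + 1) scale, and changes with MI are therefore given from counts. Ctsk, with a mean of 13.3 FPKM, stood beside Ctsc at 12.97 and Ctsh at 10.6 FPKM, with overlapping ranges.

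**Figure D1:**
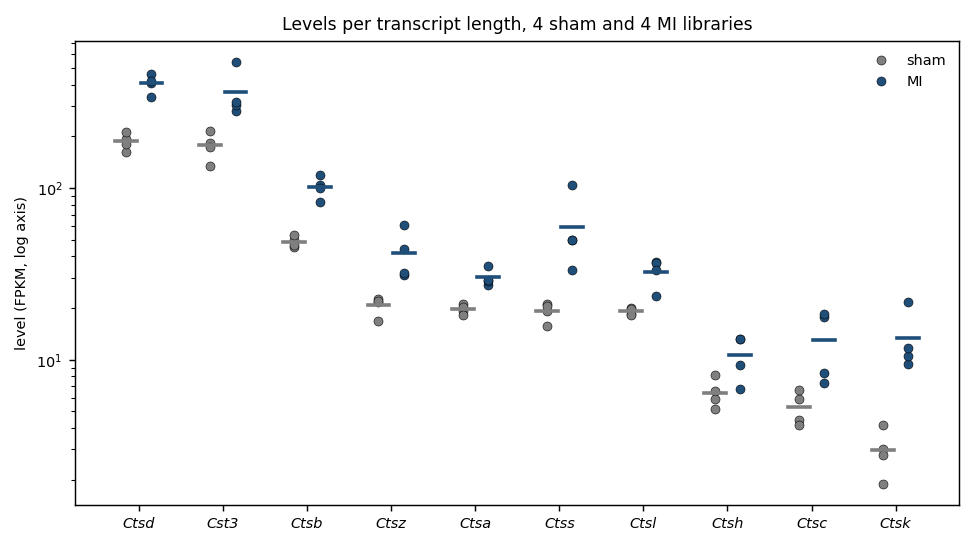
Levels of the 10 genes in deposited gene FPKM on a log axis, ordered by their mean in sham hearts. Points are the 4 sham (grey) and 4 MI (blue) libraries and bars are their means. Ctsd, Cst3 and Ctsb lead in both conditions, and Ctsk, last in sham hearts at 2.98 FPKM, has a mean of 13.3 FPKM in MI hearts, on a scale whose median gene was 0.41 higher with MI in log2(FPKM + 1).

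Of the 10 genes, 4 rose with MI over both genotypes, Ctsk, Ctss, Ctsb and Ctsd, and none was called lower. Calls here are those of edgeR's quasi-likelihood test at a Benjamini-Hochberg adjusted p under 0.05, and 22.0% of all tested genes were called higher and 18.3% lower in this comparison. All 10 log2 fold changes were above 0, with a median of 0.46 beside 0.03 over all genes tested. The members were chosen with earlier results of these data known. Their counts and medians beside those of all genes, here and below, are therefore description only. Every MI library lay above every sham library for Ctsb, Ctsd, Ctsk, Ctss and Ctsz, a pattern seen in 20.9% of tested genes. Such a separation by itself fixes the exact two-sided permutation p of each of these 5 genes at 0.0286, the smallest that 4 libraries against 4 allow. Without fl/fl-MI 2, 7 genes were called higher, the added ones being Ctsc, Ctsz and Cst3. Without fl/fl-Sham 1, fl/fl-Sham 2 or CKO-Sham 1, only Ctsk and Ctss were called. In bulk tissue, a change in the number of cells of a type and a change in RNA per cell cannot be told apart.

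**Figure D2:**
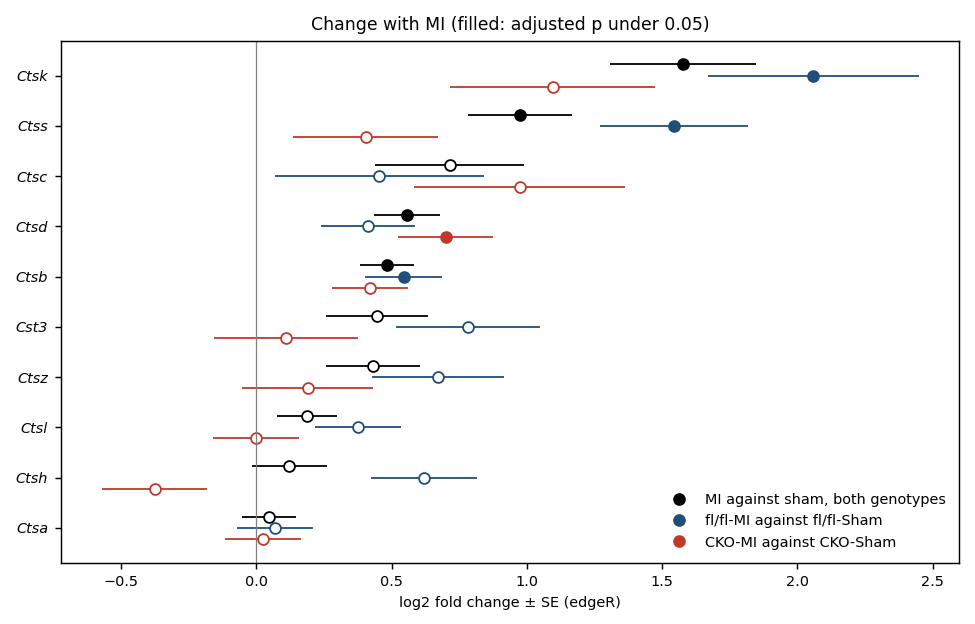
Log2 fold changes with MI, with SE, for both genotypes together (black), for fl/fl-MI against fl/fl-Sham (blue) and for CKO-MI against CKO-Sham (red); filled points have an adjusted p under 0.05. Ctsk and Ctss have the largest changes over both genotypes, at 1.58 and 0.97, and Ctsh lies on opposite sides of 0 in the 2 genotypes, at 0.62 and -0.38, neither of them called.

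Ctsk and Ctss, the members best known for cutting elastin and collagen, changed most. Ctsk read 3.73 and 5.59 CPM in the fl/fl-Sham libraries, 5.27 and 8.11 in CKO-Sham, 25.7 and 13.1 in fl/fl-MI, and 14.7 and 13.9 in CKO-MI. All 4 MI libraries were thus higher than all 4 sham libraries, and fl/fl-MI 1 was the highest. The log2 fold change with MI was 1.58 ± 0.27 (SE, edgeR adjusted p = 0.00489), a 2.98-fold difference. Ctss, the cathepsin that trims the invariant chain of MHC class II, read 27.8 and 31.6 CPM in fl/fl-Sham, 35.8 and 35.9 in CKO-Sham, 110.7 and 62.5 in fl/fl-MI, and 41.6 and 53.2 in CKO-MI. Sham and MI libraries did not overlap, and the lowest MI library was CKO-MI 1. Its log2 fold change was 0.97 ± 0.19 (adjusted p = 0.00790). Both genes kept their call under each of the 8 fits that left out 1 library. They lie in the same orientation on chromosome 3, Ctsk (ENSMUSG00000028111) at 95499256 to 95509362 and Ctss (ENSMUSG00000038642) at 95526786 to 95556403, with 17423 bases and no gene of the table between them.

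Ctsb and Ctsd, the abundant cathepsins of general lysosomal protein breakdown, rose by less and with less spread. Ctsb read 393 and 391 CPM in fl/fl-Sham, 343 and 358 in CKO-Sham, 566 and 577 in fl/fl-MI, and 459 and 478 in CKO-MI. The replicates lay close together, and the 4 group ranges were separate, with fl/fl above CKO under both conditions. Neither genotype difference was called. The log2 fold change of CKO against fl/fl was -0.29 ± 0.14 after MI (edgeR adjusted p = 0.645). In sham hearts it was -0.16 ± 0.14 (edgeR unadjusted p = 0.290). The share of all genes with this order under both conditions was not counted. The log2 fold change with MI was 0.48 ± 0.10 (adjusted p = 0.00948). Ctsd read 586 and 601 CPM in fl/fl-Sham, 475 and 545 in CKO-Sham, 852 and 729 in fl/fl-MI, and 881 and 775 in CKO-MI. MI and sham libraries did not overlap, and the genotypes overlapped after MI. Its log2 fold change was 0.56 ± 0.12 (adjusted p = 0.0121). In the GENCODE M21 annotation 6757 bases of Ctsd also belong to the gene model Gm49369 on the same strand, and how reads shared by both were counted is not given. Each of these calls was lost in 3 of the 8 fits that left out 1 library.

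Ctsz and Cst3 had smaller changes that missed the threshold. Ctsz, a carboxypeptidase that is abundant in macrophages, read 31.4 and 37.8 CPM in fl/fl-Sham, 40.7 and 40.4 in CKO-Sham, 68.8 and 41.5 in fl/fl-MI, and 42.4 and 50.1 in CKO-MI. The MI libraries all lay above the sham libraries, fl/fl-MI 2 by the least. The log2 fold change was 0.43 ± 0.17 (adjusted p = 0.0850). Cst3 read 221 and 283 CPM in fl/fl-Sham, 341 and 280 in CKO-Sham, 537 and 327 in fl/fl-MI, and 352 and 317 in CKO-MI. Sham and MI libraries overlapped, and fl/fl-MI 1 stood above the other 7. Its log2 fold change was 0.45 ± 0.19 (adjusted p = 0.0985). Without fl/fl-MI 2 both were called, at log2 fold changes of 0.59 and 0.60 with adjusted p of 0.00329 and 0.00843. Without fl/fl-MI 1 the values were 0.21 and 0.23, with adjusted p of 0.149 and 0.215.

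Ctsc, which activates the serine proteases of immune cell granules, split the MI libraries within each genotype. It read 44.5 and 46.9 CPM in fl/fl-Sham, 32.3 and 30.9 in CKO-Sham, 80.7 and 44.6 in fl/fl-MI, and 39.4 and 84.5 in CKO-MI. Only fl/fl-MI 1 and CKO-MI 2 were above the sham range, and the log2 fold change of 0.71 ± 0.27 was not called (adjusted p = 0.0756). It was called by DESeq2 (adjusted p = 0.0279), by edgeR without the filter on low values (adjusted p = 0.0351), and without fl/fl-MI 2 or CKO-MI 1, at 0.90 and 0.91. Without fl/fl-MI 1 or CKO-MI 2 the log2 fold change was 0.45 or 0.37. Of 13 macrophage markers, 7 had the same pair as their highest MI libraries, and the other 6, Csf1r, C1qb, Lyz2, Aif1, Cd68 and Cd14, did not. Ccr2 and Cx3cr1, both of the 7, are given as examples chosen after their values were seen. Ccr2, a receptor of recruited monocytes, was highest in fl/fl-MI 1 and CKO-MI 2, at 21.7 and 17.5 CPM, beside 4.49 and 7.11 CPM in the other MI libraries. Cx3cr1, a receptor of monocytes and resident macrophages, read 12.9 and 19.03 CPM in that pair and 2.003 and 3.99 CPM in the other MI libraries. In sham libraries Ccr2 ranged from 4.51 to 13.7 CPM, and the part of these cells in the Ctsc values was not tested. Granule genes listed with Ctsc were hardly detected. The serine proteases Gzma, Gzmb, Elane and Prtn3 and the peroxidase Mpo all stayed under the filter on low values, and their summed level was 0.348 to 3.68 CPM over the 8 libraries.

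**Figure D3:**
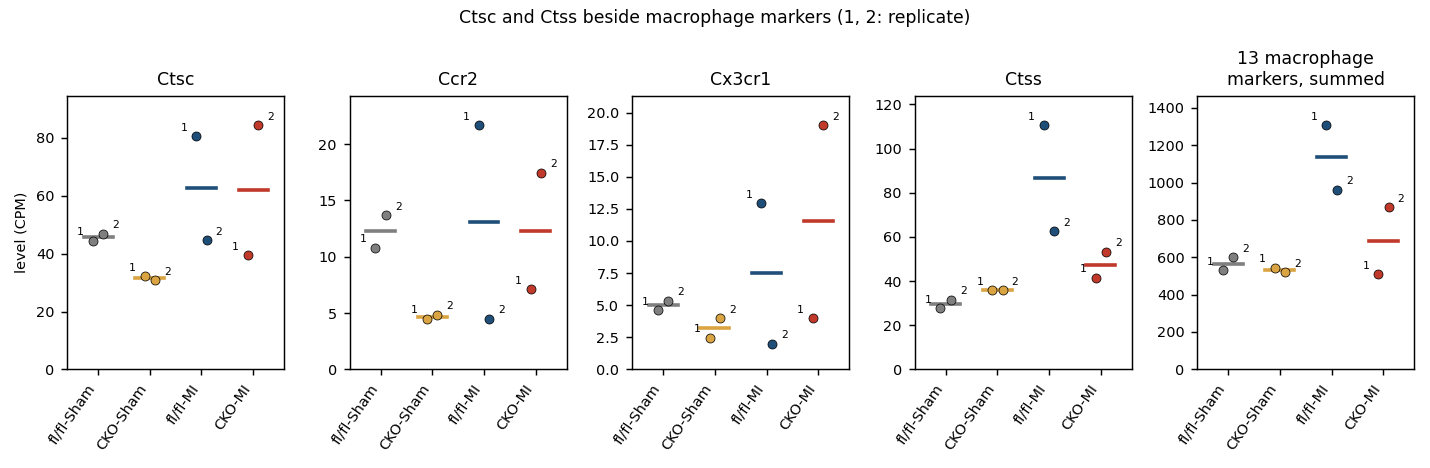
Levels in CPM of Ctsc, Ccr2, Cx3cr1, Ctss and the sum of 13 macrophage markers in each library, with group means as bars and the replicate number beside each point. Ctsc, Ccr2 and Cx3cr1 are highest in fl/fl-MI 1 and CKO-MI 2, whereas Ctss is highest in both fl/fl-MI libraries.

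Ctsl, Ctsh and Ctsa showed no call with MI. Ctsl, a widely expressed lysosomal endopeptidase, read 156 and 157 CPM in fl/fl-Sham, 160.0 and 151 in CKO-Sham, 188 and 219 in fl/fl-MI, and 139.7 and 171 in CKO-MI. Both fl/fl-MI libraries were the highest and CKO-MI 1 was the lowest of the 8, and the log2 fold change was 0.19 ± 0.11 (adjusted p = 0.221). Ctsh, an aminopeptidase, read 30.0 and 35.7 CPM in fl/fl-Sham, 45.8 and 34.0 in CKO-Sham, 46.2 and 54.7 in fl/fl-MI, and 28.1 and 33.3 in CKO-MI. Its MI libraries of the 2 genotypes did not overlap, and its log2 fold change over both was 0.12 ± 0.14 (adjusted p = 0.515). Ctsa stayed between 108.5 and 129.9 CPM in the 8 libraries, with a log2 fold change of 0.05 ± 0.10 (adjusted p = 0.730).

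**Figure D4:**
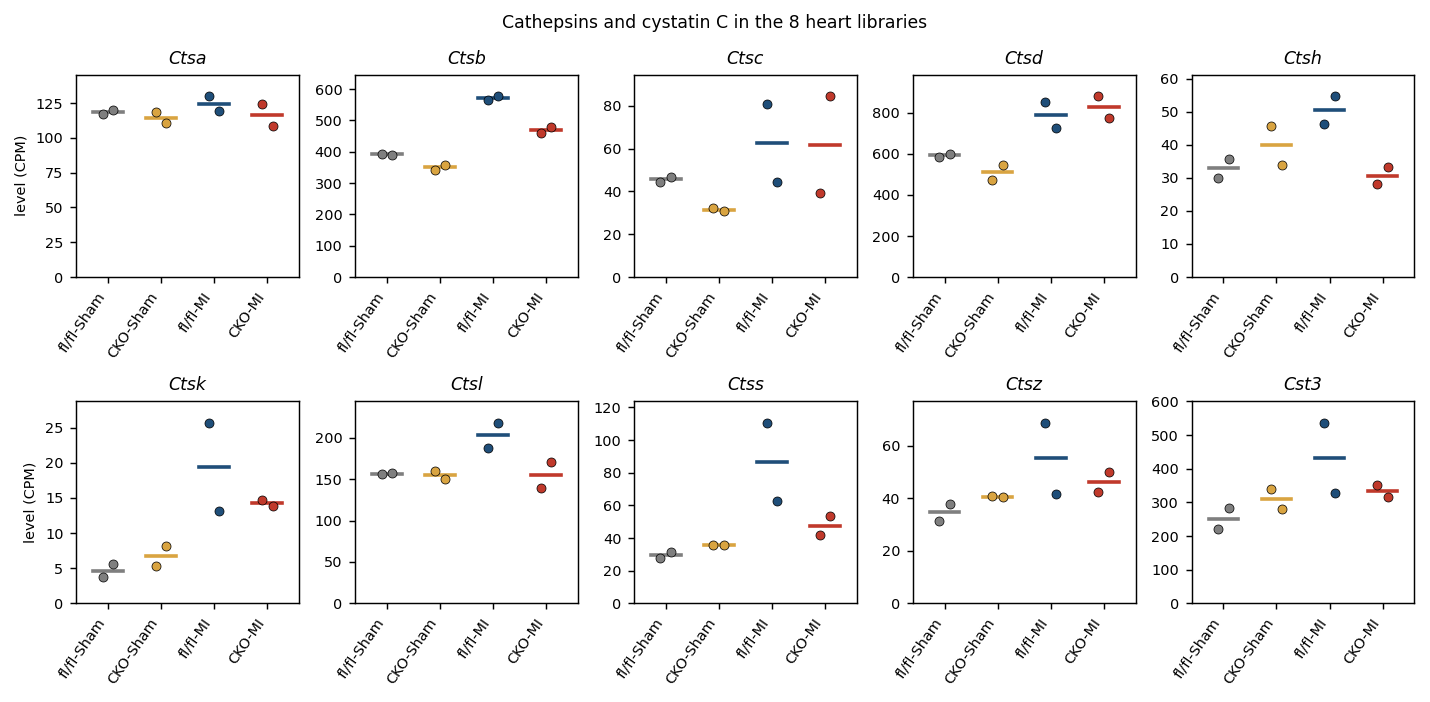
Levels in CPM of each gene in the 8 libraries, with points for libraries and bars for group means; each axis starts at 0. Sham and MI libraries are separate for Ctsb, Ctsd, Ctsk, Ctss and Ctsz, and in Ctsh both fl/fl-MI libraries, at 46.2 and 54.7 CPM, lie above both CKO-MI libraries.

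Within fl/fl hearts, Ctsk, Ctss and Ctsb were called higher after MI, 3 of 10 genes against 10.1% of all genes. Their log2 fold changes were 2.06 ± 0.39, 1.54 ± 0.27 and 0.54 ± 0.14, with adjusted p of 0.0159, 0.0135 and 0.0406. Of the 8 fits that left out 1 library, Ctsk and Ctss were called in 6 each and Ctsb in 2. With the 5 libraries whose Esr1 level did not go against the label, where fl/fl-MI 1 stands alone for its group and is assumed to vary like the others, Ctsk, Ctss, Ctsz and Cst3 were called. Within CKO hearts, Ctsd was called higher, 1 of 10 genes against 12.8% of all genes, at a log2 fold change of 0.70 ± 0.17 (adjusted p = 0.0291). The call was lost when replicate number was a block and when any library other than an fl/fl-MI library was left out. Ctsk had 1.10 ± 0.38 in CKO hearts (adjusted p = 0.0740) and Ctss 0.40 ± 0.27 (adjusted p = 0.303). Both CKO-Sham libraries went against their label by Esr1, and no fit of this comparison without them is possible.

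Between the genotypes after MI, none of the 10 genes was called by edgeR, by DESeq2 or by limma on log2(FPKM + 1). At an unadjusted p under 0.05, 3 genes had lower values in the libraries labelled CKO-MI, while 5.24% of all genes did so. These were Ctsh at a log2 fold change of -0.72 ± 0.20 (adjusted p = 0.549), Ctss at -0.87 ± 0.27 (adjusted p = 0.549) and Ctsl at -0.39 ± 0.16 (adjusted p = 0.582). Without fl/fl-MI 1 the value of Ctss was -0.38 (adjusted p = 0.190), and without CKO-MI 1 that of Ctsl was -0.24 (adjusted p = 0.858). The median over the 10 genes was -0.33 beside -0.01 over all genes tested. Of the 10 values 9 were below 0, while 6852 of all 14028 genes tested were above 0. Over the fits that left out 1 library, Ctsa, Ctsc, Ctsd, Ctsk, Ctsz and Cst3 fell on both sides of 0. Both CKO-MI libraries lay below both fl/fl-MI libraries for Ctsb, Ctsh, Ctsl and Ctss, an order found in 15.5% of tested genes. With 2 libraries against 2, an exact permutation test of a single gene cannot go below 0.333. Of all genes, edgeR called 0 in this comparison, with 1166 at an unadjusted p under 0.05, and DESeq2 called 207. With only the 5 libraries whose Esr1 level did not go against the label, again none of the 10 was called, and Ctss had -1.22 (adjusted p = 0.158) and Ctsh -0.59 (adjusted p = 0.371).

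In sham hearts none of the 10 genes differed between genotypes even at an unadjusted p under 0.05, against 3.89% of all genes, and their log2 fold changes lay between -0.53 for Ctsc and 0.52 for Ctsk. The change with MI was also compared between genotypes directly, as the interaction of genotype and MI. No gene was called by edgeR, which gave 1191 genes an unadjusted p under 0.05, and DESeq2 called 131 genes, none of the 10 among them. At an unadjusted p under 0.05 the members were Ctsh at -0.995 ± 0.277 and Ctss at -1.14 ± 0.38, both lower, against 4.94% of all genes lower at that level. Their adjusted p was 0.574 each, and without fl/fl-MI 1 the value of Ctss was -0.65. The comparisons within each genotype, between genotypes and of the interaction share libraries, so their values are not independent of each other.

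The sum of the 7 cysteine cathepsins was set beside their inhibitor in deposited gene FPKM. The summed level was 114, 130, 125 and 121 FPKM in the sham libraries, 375 and 252 in fl/fl-MI and 196 and 266 in CKO-MI. Cst3 over that sum gave ratios of 1.18 to 1.74 in sham hearts and 1.11 to 1.54 in MI hearts, which overlapped. Within the sum, Ctsb held the largest share in both conditions, with means of 39.9% and 38.2%. Ctss held 13.8% to 17.0% in sham and 17.0% to 27.8% in MI libraries. Ctsk held 1.66% to 3.45% and 3.74% to 5.80%, without overlap. Shares and ratios within a library do not depend on the scaling between libraries, whereas the sums do. All of them depend on how the gene FPKM treats length. In fl/fl-Sham 1 the gene value of Ctsl was 18.6 FPKM and its transcript Ctsl-201 alone read 39.6, whereas Ctsk read 1.90 in both. Shares and ratios from transcript values were not worked out.

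No further cathepsin was called. Ctsf ranged from 21.2 to 36.6 CPM and Ctso from 20.4 to 38.0 CPM, at log2 fold changes of -0.06 ± 0.12 (adjusted p = 0.702) and -0.33 ± 0.12 (adjusted p = 0.0598). Ctsw was at most 1.81 CPM, and Ctse and Ctsg were under the filter. Of the further inhibitors, Cstb, the intracellular cystatin B, ranged from 4.28 to 8.17 CPM. Neither it nor Serpinb6a was called, at log2 fold changes of 0.13 ± 0.20 and 0.35 ± 0.15 with adjusted p of 0.639 and 0.0937.

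The rest of the lysosomal system was described by lists of its genes, each by its counts in the comparison of MI with sham over both genotypes, where 22.0% of all genes were called higher and 18.3% lower. No list was tested against all genes. Of 7 lysosomal proteases and processing enzymes, 3 rose and 0 fell, with a median log2 fold change of 0.81. Lgmn, the legumain that processes several cathepsins, read 52.8 to 56.0 CPM in sham and 87.0 to 121 CPM in MI libraries, a log2 fold change of 0.94 ± 0.12 (adjusted p = 0.00172), and Cpq, a carboxypeptidase, had 0.81 ± 0.12. Of 24 lysosomal hydrolases and activators, 8 rose and 1 fell, with a median of 0.30. Examples are Arsb, a sulfatase that takes part in glycosaminoglycan breakdown, at 1.04 ± 0.16, and Idua, an iduronidase, at -0.37 ± 0.12. Of 20 membrane and acidification genes, 10 rose and 2 fell, with a median of 0.37. Scarb2 at 1.05 ± 0.14, Lamp2 at 0.94 ± 0.11 and Lamp1 at 0.62 ± 0.11 are proteins of the lysosomal membrane. Genes of the proton pump were called in both directions. Atp6v1a at 0.38 ± 0.11, Atp6v1b2 at 0.60 ± 0.09, Atp6v1c1 at 0.51 ± 0.10, Atp6v1h at 0.71 ± 0.16 and the accessory Atp6ap1 at 0.68 ± 0.09 rose, and Atp6v1g1 at -0.41 ± 0.11 and Atp6v1f at -0.44 ± 0.12 fell.

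Genes of cathepsin delivery and of lysosomal gene control were read in the same way. Of 6 delivery genes, 2 rose and 0 fell, namely Igf2r, the large mannose 6-phosphate receptor, at 1.02 ± 0.11, and Gnptab, which makes the mannose 6-phosphate tag, at 1.02 ± 0.13. M6pr, the small receptor, had 0.26 ± 0.09 (adjusted p = 0.0576). Of the 3 tested factors of the Tfeb family, none was called. Tfeb had -0.07 ± 0.13 (adjusted p = 0.693) and Tfe3 0.44 ± 0.15 (adjusted p = 0.0518).

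Genes of MHC class II loading and of the matrix include substrates of cathepsins. All 6 genes of MHC class II loading were called higher over both genotypes, with a median log2 fold change of 1.45. Within fl/fl hearts 5 were called higher, beside 10.1% of all genes, with a median of 2.19. Within CKO hearts 0 were called, beside 12.8% of all genes higher, with a median of 0.78. Cd74, the invariant chain that Ctss cuts, read 52.0 to 91.2 CPM in sham libraries, while fl/fl-MI had 475 and 155 and CKO-MI had 107 and 109. As with Ctss, fl/fl-MI 1 was the highest and every MI library exceeded every sham library. Of 6 tested matrix genes, 4 rose and 0 fell, with a median of 1.70, among them Col1a1 at 1.70 ± 0.38, Col1a2 at 2.07 ± 0.35 and Fn1 at 1.69 ± 0.33, while Eln, elastin, had 0.92 ± 0.39 (adjusted p = 0.0991).

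Markers of cell types in the tissue were read in the same comparison. Of 13 macrophage markers, 4 were called higher and 0 lower with MI, beside 22.0% higher and 18.3% lower over all genes, among them Adgre1 at 1.14 ± 0.19 and Cd14 at 1.78 ± 0.35. Their summed level was 521 to 599 CPM in sham hearts, 963 to 1308 CPM after MI in fl/fl hearts, and 511 to 868 CPM after MI in CKO hearts, so that CKO-MI 1 lay below the sham range. Of 7 fibroblast markers, 6 were called higher, among them Pdgfra at 0.69 ± 0.21 and Postn at 3.91 ± 0.59, at summed levels of 964 to 998 CPM in sham and 1318 to 3513 CPM in MI libraries. Of 6 endothelial markers, 5 were called lower, Pecam1 at -0.88 ± 0.18 among them, at summed levels of 1486 to 1734 and 544 to 922 CPM. The part of these cells in the cathepsin values was not tested. Of 9 cardiomyocyte markers, 3 were called higher, Actc1 at 0.93 ± 0.25, Ryr2 at 0.89 ± 0.26 and Atp2a2 at 1.29 ± 0.39, and 2 lower, Tnni3 at -1.19 ± 0.30 and Myl2 at -1.22 ± 0.29. Of 3 tested dendritic cell markers, Cd209a was called higher at 4.25 ± 0.91 and Zbtb46 lower at -1.41 ± 0.16, and of 4 smooth muscle markers Myh11 was called lower at -0.92 ± 0.30. Of 6 osteoclast markers, listed because Ctsk is the main protease of osteoclasts, Ocstamp, Dcstamp and Calcr were at or near 0, with largest values of 0.247, 0.253 and 0.0817 CPM. Oscar and Atp6v0d2 reached 0.817 and 2.47 CPM, under the filter. Acp5, which macrophages also express, read 3.45 to 6.73 CPM and was called higher in fl/fl hearts (0.83 ± 0.23, adjusted p = 0.0485) but not over both genotypes (0.34 ± 0.16, adjusted p = 0.131). Of the 5 neutrophil, 2 lymphocyte and 4 adipocyte markers tested, none was called.

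The deposited transcript values were described without a test. Ctsk and Ctsz had 1 transcript each, and Ctsb and Cst3 had 1 transcript with at least 99.3% of the gene's transcript FPKM in every library. Ctsa, whose gene level hardly differed, had different listed shares of 2 coding transcripts in sham and MI libraries. Ctsa-201 (ENSMUST00000103092) held 72.3% to 78.7% of Ctsa transcript FPKM in sham libraries and 41.3% to 64.1% in MI libraries. Ctsa-202 (ENSMUST00000103093) held 4.61% to 9.82% and 21.0% to 44.8%, and neither range overlapped between conditions. In GENCODE M21, Ctsa-201 has 16 exons and Ctsa-202 has 15. The extra exon of Ctsa-201 spans 164833724 to 164833850 on chromosome 2, and its last exon ends at 164841032 rather than 164840019. On the opposite strand, Ctsa shares 584 bases with Neurl2 and 502 with Pltp. How antisense reads were counted is not given, and their part in these shares was not tested. How often transcripts of other genes separate by condition was not counted.

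**Figure D5:**
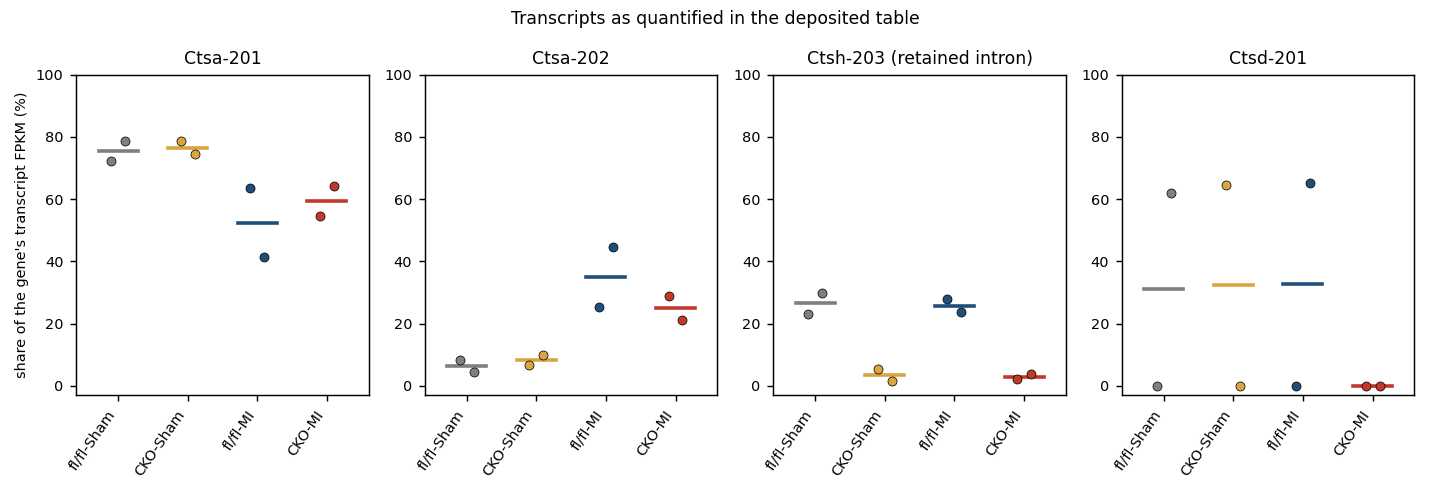
Share of the gene's summed transcript FPKM, in percent, held by Ctsa-201, Ctsa-202, Ctsh-203 and Ctsd-201 in each library, with group means as bars. Ctsa-202 is 4.61% to 9.82% in sham and 21.0% to 44.8% in MI libraries. Ctsh-203 is 23.2% to 29.9% in libraries labelled fl/fl and 1.61% to 5.37% in those labelled CKO, without a test. Ctsd-201 is at 0 in 5 libraries and over 60% in 3.

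One transcript of Ctsh differed in its share by genotype label. Ctsh-203 (ENSMUST00000127842), a retained-intron transcript, held 23.2% and 29.9% of Ctsh transcript FPKM in fl/fl-Sham and 27.9% and 23.6% in fl/fl-MI. It held 5.37% and 1.61% in CKO-Sham and 2.29% and 3.78% in CKO-MI. The 4 libraries labelled fl/fl were separate from the 4 labelled CKO under both conditions. This includes the 3 libraries whose Esr1 level went against the label, and no test was run on this share. How often transcripts of other genes separate by label in this way was not counted. Transcript shares could also differ widely within a group. Ctsl-201 (ENSMUST00000021933) held 83.8% and 34.6% of Ctsl transcript FPKM in fl/fl-Sham and 51.6% and 88.5% in CKO-MI. Ctsd-201 (ENSMUST00000066401), a coding transcript, was listed at 0 in 5 libraries and held over 60% of Ctsd transcript FPKM in the other 3, which were 1 each of fl/fl-Sham, CKO-Sham and fl/fl-MI.

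Promoters were searched because 4 of the genes rose together with MI. RefSeq windows on GRCm38.p6, from 250 bases before to 50 after a start site, were at hand for 8 of the 10 genes, with 2 windows for Ctsa, and Ctsb, one of the 4, and Ctsh had none. Of 32851 windows, 7.15% held CACGTG, the E-box core, on either strand, and 0.974% held the longer TCACGTGA, bound by factors of the Tfeb family. The longer motif includes the E-box core, so both counts share sites. The core was found in windows of Ctsa, Ctsd and Ctsl, and the longer form in Ctsa and Ctsd. GAGGAAGT, a motif of the myeloid factor PU.1, was in 3.20% of windows and in those of Ctsc and Ctss. GGGCGG was in 35.7% of windows and in those of 5 members, TATAAA in 13.6% and in that of Ctss, and TGACTCA in 5.20% and in no member's window. The 30 bases around TCACGTGA and GAGGAAGT are shown on the gene's strand, with the motif in capitals.
Ctsd (chr7:142387908-142387937, minus strand): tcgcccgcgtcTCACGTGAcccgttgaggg
Ctsa (chr2:164833749-164833778, plus strand, at the start site within exon 2 of Ctsa-201): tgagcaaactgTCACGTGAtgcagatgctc
Ctsa, second site (chr2:164833766-164833795, plus strand): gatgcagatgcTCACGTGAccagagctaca
Ctss (chr3:95526773-95526802, plus strand, motif on the other strand): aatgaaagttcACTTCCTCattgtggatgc
Ctsc (chr7:88277923-88277952, plus strand, motif on the other strand): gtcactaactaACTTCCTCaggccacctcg
The motif begins at position -99 from the RefSeq start site in Ctsd, at -13 and 4 in Ctsa, -151 in Ctsc and -2 in Ctss. In GENCODE M21 Ctsd begins at 142388038 on the minus strand, so the Ctsd stretch lies within that gene model. Of the genes with TCACGTGA, Ctsd rose with MI and Ctsa was not called. Of those with GAGGAAGT, Ctss rose and Ctsc was not called. Ctsk, which had the largest rise of the 10 genes, had a window with none of the motifs searched.

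Other genes with the pattern most like each member were found by the root mean square difference of centred log2 CPM over the 8 libraries, as a description. Nearest to Ctss were Lyz2, the lysozyme of macrophages, at 0.149, Glipr1 at 0.163 and Laptm5, a lysosomal membrane protein of blood cells, at 0.172. Nearest to Ctsc were Mst1r at 0.113, Fcrls at 0.116 and Fcgr2b, an inhibitory Fc receptor, at 0.153. Nearest to Ctsk were Gli2 at 0.164, Ptgis at 0.203 and Antxr1 at 0.221. For Ctsd these were Foxk1 at 0.0387, Smcr8 at 0.0441 and Nars at 0.0555, and for Ctsb Sestd1 at 0.0662, Lztfl1 at 0.0688 and Fchsd2 at 0.0724. For Ctsz they were Lgals1 at 0.0724, Prkcd at 0.102 and Igsf8 at 0.109, and for Cst3 Cd300a at 0.132, Cd9 at 0.133 and Igsf8 at 0.138. Among those of Ctsl were Foxp1 at 0.0566 and Sh3bp5 at 0.0800, and for Ctsh they were Deptor at 0.116, Psen2 at 0.118 and Pf4 at 0.135. For Ctsa they were Rbbp9 at 0.0445, Arsg at 0.0557 and Trappc3 at 0.0558. Between members, Ctsz and Cst3 were the most alike at 0.131, followed by Ctsb and Ctsd at 0.163.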

How the data were processed

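The authors made strand-marked poly(A) libraries and sequenced paired ends. The submitters' processing notes name cutadapt 1.9 and FastQC; aligner, counter and annotation are not given in the sources used here. The authors deposited, per gene and transcript, a whole-number count that is not normalized and an FPKM value scaled to length and library size. Low counts pile up at multiples of 4, so counts divided by 4 were tried. The 10 genes have the start, and 8 the end, of GENCODE M21 on GRCm38. In that annotation 7 overlap another gene, and how shared or antisense reads were counted is not known. Samples were grouped by label. Genes whose FPKM averaged 0.5 or more were tested on counts with edgeR 4.0.16 (R 4.3.3) by the quasi-likelihood test after TMM normalization, with all 8 libraries and a mean per group. Calls need a Benjamini-Hochberg adjusted p under 0.05. SE is the absolute log2 fold change over the square root of F. CPM uses the TMM library sizes. Alternatives were RLE, TMM without mitochondrially encoded genes, DESeq2 1.42.0, limma 3.58.1 on log2(FPKM + 1), log2(FPKM + 0.1) and log2(TPM + 1), other filters, the replicate number as a block, only the libraries compared, each library left out, and an unadjusted p with 2-fold change. A crossed block and a fit to 5 libraries were added after seeing the data. The scripts were tested on simulated data. Named genes are the 10 members and, per list, the first gene and those with the smallest adjusted p in each direction; values of a few more list genes were given after they were seen. Some genes that this rule names are not reported here. Likeness used log2(CPM + 0.1). Members and lists were chosen with earlier results of these data known.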

Additional observations from a re-analysis of the deposited data

How the results depend on the processing

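Ctsk and Ctss stayed called with MI over both genotypes under the 10 other settings that kept all libraries and an adjusted p, and in all 8 fits that left out a library; Ctsb and Ctsd did so in all 10 and in 5 of 8. The rule of an unadjusted p with 2-fold change kept 1 gene, Ctsk, there, and added 1, Ctss, to the interaction. Limma on log2(FPKM + 1), on log2(FPKM + 0.1) and on log2(TPM + 1) called 10, 10 and 10 genes over both genotypes, 9, 9 and 10 in fl/fl hearts, and 4, 5 and 10 in CKO hearts. On these scales the median of all genes with MI was itself 0.41, 0.56 and 0.92, beside 0.03 in edgeR, and all 10 genes lay above it on each. DESeq2 called 5 genes over both genotypes, Ctsc being the added one, 5 in fl/fl and 4 in CKO hearts. With only the libraries compared, 0 were called in fl/fl and 2 in CKO hearts, and 2 in CKO hearts without a filter. Leaving out 1 library gave 2 to 7 calls over both genotypes, 0 to 5 in fl/fl hearts (0 without either fl/fl-Sham library, 5 without fl/fl-MI 2), 0 to 4 in CKO hearts (4 without either fl/fl-MI library), and 0 to 1 for CKO-MI against fl/fl-MI, namely Ctsh without fl/fl-MI 1. The cause of these changes was not tested.

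Directions turned for some genes. Restricted to genes averaging 5 FPKM or more, Ctsa was -0.0287 over both genotypes and -0.0675 in CKO hearts, and Ctsl was 0.0109 between sham hearts. In CKO hearts Ctsa was -0.0042 without mitochondrially encoded genes in the scaling, Ctsh was 0.1752, 0.1963 and 0.7133 in the 3 limma fits, and Ctsl was 0.5329, 0.5532 and 1.0993 in them and 0.0795 without a filter. Ctsd was -0.0405 for CKO-MI against fl/fl-MI in the 5 libraries whose Esr1 level did not go against the label. With 1 library left out, log2 fold changes over both genotypes ranged from -0.0339 to 0.0789 for Ctsa. In fl/fl hearts they ranged from -0.0230 to 0.1311 for Ctsa and -0.0618 to 0.8192 for Ctsc. In CKO hearts they ranged from -0.1022 to 0.1234 for Ctsa, -0.1522 to 0.1120 for Ctsl and -0.0261 to 0.2578 for Cst3. For CKO-MI against fl/fl-MI they ranged from -0.1860 to 0.0395 for Ctsa, -0.6318 to 0.4853 for Ctsc, -0.0405 to 0.2021 for Ctsd, -0.8483 to 0.1384 for Ctsk, -0.5737 to 0.1726 for Ctsz and -0.6832 to 0.0492 for Cst3. Between sham hearts they ranged from -0.1027 to 0.0019 for Ctsa and -0.0548 to 0.0296 for Ctsl, and for the interaction from -0.1365 to 0.0891 for Ctsa and -0.0967 to 1.0204 for Ctsc.

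Replicate numbers were checked for pairing, and the differences between replicates 2 and 1 correlated at -0.143 to 0.063 between groups. With a single difference per group, this check cannot tell whether replicates of the same number share a batch. The labels give no pairing. With the replicate block 4 genes were called over both genotypes, 2 in fl/fl hearts and 0 in CKO hearts, and crossing the numbers for CKO-MI against fl/fl-MI gave 0.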
